A study of Mus musculus with 8 samples.

Results

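The Hox genes are 39 of the 24062 genes in the count tables of whole cerebella from newborn mice, taken as every symbol made of Hox, a cluster letter from a to d and a number. Cluster A has 11 of them on chromosome 6, cluster B has 10 on chromosome 11, cluster C has 9 on chromosome 15 and cluster D has 9 on chromosome 2, by the chromosomes in the deposited exon bin names. Genes with the same number in different clusters descend from a common ancestor and are called a paralog group. A total of 13 members passed the filter on low counts and were tested, 26 were not, and 7 of those 26 had no count in any library.

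RNA was sequenced from the cerebella of 4 mutant pups and 4 control littermates at postnatal day 2, each cerebellum collected on its own. Mutants were Math1-Cre; Sufu flox/-, with one conditional and one null copy of Sufu, a negative regulator of Hedgehog signalling. Controls were Sufu flox/+, and the labels do not say whether Cre was present in them. The cross, between Math1-Cre; Sufu +/- mice and Sufu flox/flox; Math1 mgfp/mgfp mice of a mixed C57BL/6 background, passes a Math1 mgfp allele and a floxed Sufu allele to pups of both groups. Math1-Cre acts in progenitors of the rhombic lip, which give rise to cerebellar granule neurons and, further back, to hindbrain neurons, so recombined cells were only one part of each sample, while the null allele was in every cell of the mutants.

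Hox genes encode homeodomain transcription factors that give the body axis its regional identity. They lie in clusters, and genes at the 3′ end, with low paralog numbers, are active earlier and further forward than genes with high numbers. In the hindbrain their forward limits follow the rhombomeres, with Hoxa2 reaching furthest forward. The cerebellum itself forms mainly from the first rhombomere, ahead of the Hox domains, whereas the medulla and the precerebellar nuclei behind it express Hox genes of low paralog number.

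Promoter windows from RefSeq (build GRCm38.p6, 250 bases before to 50 after the gene start) were found for 22 of the 39 members, among them 7 of the 13 tested genes. The deposited counts were made on mm9, so these windows serve as sequence only. The 5 windows below show each cluster at least once and each of the paralog groups 2 to 5. They are chr6:52164782-52165081 on the minus strand for Hoxa2, chr6:52204538-52204837 on the minus strand for Hoxa5, chr11:96318017-96318316 on the plus strand for Hoxb4, chr15:103034145-103034444 on the plus strand for Hoxc4 and chr2:74711743-74712042 on the plus strand for Hoxd3. Each is printed 5′ to 3′ in the direction of the gene. Capitals mark AGGTCA, the core motif of nuclear receptors such as the retinoic acid receptors, or TGATNNAT, a motif of Pbx-Hox pairs, on either strand.
Hoxa2: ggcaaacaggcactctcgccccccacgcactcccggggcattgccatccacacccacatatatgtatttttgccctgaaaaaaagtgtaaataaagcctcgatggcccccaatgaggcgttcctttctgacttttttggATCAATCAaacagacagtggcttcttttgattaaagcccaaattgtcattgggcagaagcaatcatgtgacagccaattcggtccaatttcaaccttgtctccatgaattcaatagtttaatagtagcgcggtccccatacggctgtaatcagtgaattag
Hoxa5: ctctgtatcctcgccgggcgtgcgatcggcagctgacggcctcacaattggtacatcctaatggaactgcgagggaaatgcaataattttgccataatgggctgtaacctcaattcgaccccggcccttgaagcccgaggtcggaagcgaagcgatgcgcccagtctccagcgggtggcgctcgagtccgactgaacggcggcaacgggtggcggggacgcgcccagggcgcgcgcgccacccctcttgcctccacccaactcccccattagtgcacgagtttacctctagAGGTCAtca
Hoxb4: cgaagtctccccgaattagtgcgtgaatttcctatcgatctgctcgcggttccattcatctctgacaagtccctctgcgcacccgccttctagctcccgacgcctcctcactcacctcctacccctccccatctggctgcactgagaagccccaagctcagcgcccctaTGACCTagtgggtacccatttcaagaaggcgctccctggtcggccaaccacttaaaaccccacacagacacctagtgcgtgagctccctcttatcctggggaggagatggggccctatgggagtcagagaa
Hoxc4: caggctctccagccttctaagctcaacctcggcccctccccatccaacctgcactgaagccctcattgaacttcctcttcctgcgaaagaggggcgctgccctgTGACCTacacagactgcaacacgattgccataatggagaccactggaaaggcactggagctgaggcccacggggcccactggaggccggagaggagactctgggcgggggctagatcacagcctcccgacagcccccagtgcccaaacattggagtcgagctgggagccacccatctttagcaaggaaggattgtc
Hoxd3: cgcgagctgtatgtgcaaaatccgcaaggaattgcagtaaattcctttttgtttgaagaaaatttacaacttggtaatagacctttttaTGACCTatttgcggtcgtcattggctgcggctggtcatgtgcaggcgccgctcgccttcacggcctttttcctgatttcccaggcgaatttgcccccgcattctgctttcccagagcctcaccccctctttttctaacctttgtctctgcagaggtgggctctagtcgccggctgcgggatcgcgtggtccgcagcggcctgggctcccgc
AGGTCA was present in 5 of the 7 windows, those of Hoxa5, Hoxb4, Hoxc4, Hoxd3 and Hoxd4, and in 16.3% of all 32851 promoter windows. TGATNNAT was found in the window of Hoxa2 and in 8.85% of all windows. In Hoxa2 the match overlapped one to TTGATTGA, another Pbx-Hox motif, which 0.785% of all windows hold. Another 5 motifs were searched on both strands: TGACAG of the TALE factors (Hoxa2 and Hoxa3, 19.2% of all windows), TATAAA (Hoxd4, 13.6%), CCAAT (5 of the 7, 37.4%), GGGCGG (Hoxc4, 35.7%) and TAATTA (0 of the 7, 5.29%). These matches are letters in the sequence and not measured binding sites.

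Library totals over genes lay between 21479565 and 26638284 counts. Levels are given as CPM, counts relative to library sizes scaled by TMM, and 3 counts correspond to 0.111 to 0.141 CPM. Sufu, the targeted gene, averaged 35.7 ± 3.45 CPM in mutants and 53.8 ± 5.72 CPM in controls (SD, n = 4 each), with no overlap between the groups. Its log2 fold change was -0.59 (SE 0.11) and its adjusted p by edgeR's quasi-likelihood test was 0.381. Markers of the cerebellum were present in every library, with 1173 to 2289 CPM in mutants and 1132 to 1370 CPM in controls summed over 7 genes of granule cell precursors. Titles carry a letter, P or R, of unstated meaning: mutants 1 and 2 and controls 1 and 2 have P, and mutants 3 and 4 and controls 3 and 4 have R. Mutants 2 and 4 were the only libraries with more than a few Y-linked counts, with 1733 and 1757 counts of Ddx3y, while the other 6 libraries had 0 to 3 and were high in Xist. Mutant 4 stood apart from the other libraries in its Hox genes, and differences are given with and without it.

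All 13 tested Hox genes had lower fitted levels in mutants, and none passed the threshold. Across all members the summed Hox level was 181 CPM in mutant 1, 66.5 CPM in mutant 2, 99.6 CPM in mutant 3 and 7.80 CPM in mutant 4, against 135, 121, 221 and 196 CPM in controls 1 to 4. Mutant 1 lay within the control range, mutants 2 and 3 below it, and mutant 4 far below. The means were 88.8 ± 72.4 CPM in mutants and 168 ± 48.0 CPM in controls (SD, n = 4 each), and the mutant mean without mutant 4 was 116 ± 59.1 CPM (SD, n = 3). The log2 ratio of the means was -0.92 with mutant 4 and -0.54 without it. In bulk tissue, fewer cells that express a gene and less RNA of it per cell cannot be told apart.

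The number of Hox genes past an adjusted p of 0.05 was 0 of 13, and so was that of all genes (0.0% of 15789) in edgeR's quasi-likelihood test with Benjamini-Hochberg adjustment. At an unadjusted p under 0.05 there was 1 Hox gene, Hoxc5, which was lower in mutants, as were 5.7% of all genes tested. DESeq2 called 52 genes (0.324% of 16062), and 0 of the 15 Hox genes for which it gave an adjusted p, the lowest being 0.268. The fitted difference was negative for 13 of 13 Hox genes, against 47.7% of all genes. Log2 fold changes ran from -1.51 to -0.50 with a median of -0.92, and the median over all genes tested was 0.012. Without mutant 4 the 13 differences were still negative, from -1.13 to -0.13, and their median was -0.52. Without mutants 2 and 4, which held the Y-linked counts, 12 of 13 were negative and the median was -0.32. The part of sex in these differences was not tested, since every control lacked Y-linked counts.

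**Figure D1:**
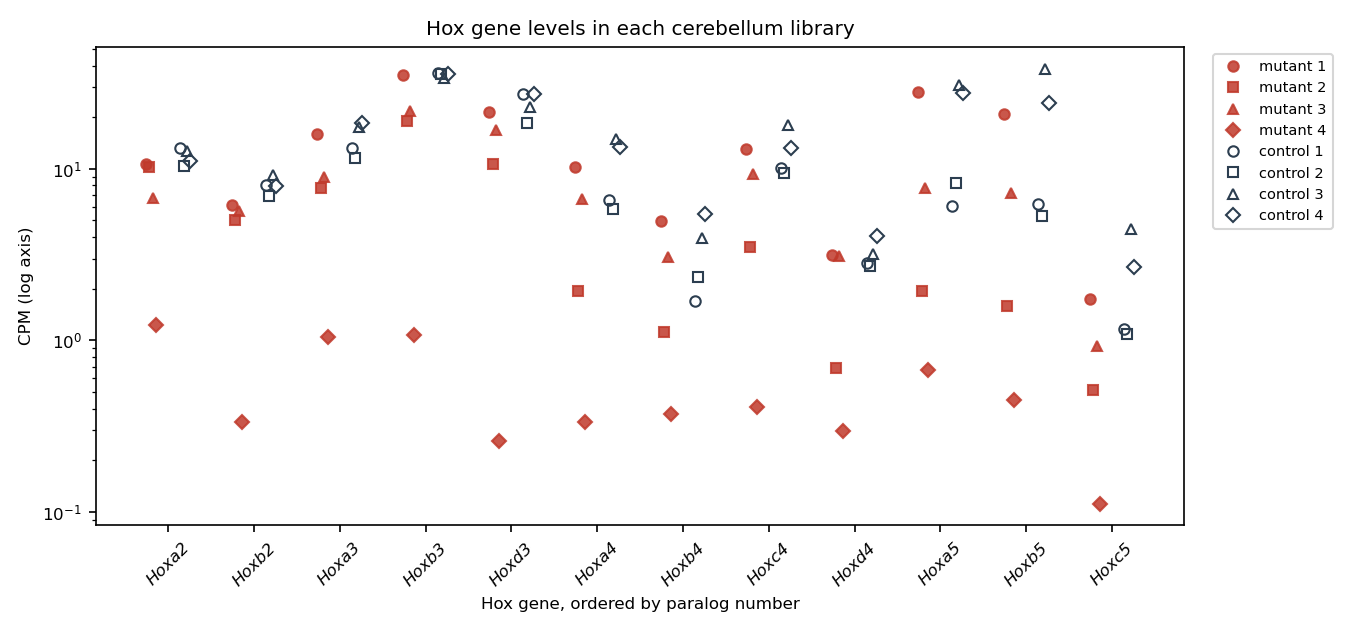
Level of 12 tested Hox genes in every library, in CPM on a log axis, with mutants as filled red symbols left of controls as open dark symbols and genes ordered by paralog number. Mutant 4 is the lowest of the 8 libraries for all 12 genes, and the control symbols lie close together for Hoxa2, Hoxb2 and Hoxb3 and far apart for Hoxa5, Hoxb5 and Hoxc5.

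In paralog group 1, 2 members were too low to be tested. Hoxb1, known for the identity of the fourth rhombomere, had 12 counts over the 8 libraries and Hoxd1 had 69. Hoxd1 had no count in mutant 4, which allows up to 0.113 CPM at 3 counts, and 6 to 15 counts in each of the other 7 libraries.

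Paralog group 2 varied little among controls and held the only tested Hox gene whose groups did not overlap. Hoxb2, which acts in the hindbrain and in facial motor neurons, stood at 6.16, 5.02, 5.65 and 0.334 CPM in mutants 1 to 4, against 8.09, 6.98, 9.18 and 7.98 CPM in controls 1 to 4. Every mutant was below every control. Such separation with lower values in mutants was seen in 1 of 13 Hox genes and in 2.96% of all genes tested. The log2 fold change of Hoxb2 was -0.92 (SE 0.53) and its adjusted p 0.455 in edgeR's test. Hoxa2, the selector of the second pharyngeal arch, had 10.6, 10.3, 6.76 and 1.23 CPM in mutants 1 to 4 and 13.2, 10.5, 12.7 and 11.2 CPM in controls 1 to 4. Mutant 1 lay within the control range, mutant 2 just below it and mutants 3 and 4 further below, and the log2 fold change was -0.72 (SE 0.45, edgeR adjusted p = 0.484). Without mutant 4 the log2 fold changes were -0.52 for Hoxb2 and -0.37 for Hoxa2.

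Paralog group 3 supplied the largest part of the Hox counts in all 8 libraries, with 30.5% to 56.1% in mutants and 33.6% to 57.0% in controls. Hoxb3, a gene of the hindbrain behind the fourth rhombomere, had 35.2, 18.9, 21.7 and 1.08 CPM in mutants 1 to 4, against 36.2, 35.9, 33.8 and 35.5 CPM in controls 1 to 4. The controls spanned only 1.07-fold and mutant 1 lay among them, whereas mutants 2, 3 and 4 were all lower. The counting interval of the mutant 4 value, from its 29 counts, was 0.722 to 1.55 CPM (exact Poisson, 95%, counting error only). The mutants spanned 32.7-fold, and the log2 fold change was -0.88 with an SE of 0.61 and an edgeR adjusted p of 0.515.

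Hoxd3, which with Hoxa3 shapes the upper cervical vertebrae, had 21.4, 10.6, 16.9 and 0.260 CPM in mutants 1 to 4, against 27.3, 18.5, 22.9 and 27.4 CPM in controls 1 to 4. Its mutant 4 value came from 7 counts, with an exact 95% Poisson interval of 0.105 to 0.536 CPM, and was 1.08% of the control mean, the lowest share among the tested Hox genes. The log2 fold change was -0.97 (SE 0.68, edgeR adjusted p = 0.520). Hoxa3, needed for the thymus and parathyroid glands, had 15.9, 7.77, 9.01 and 1.04 CPM in mutants 1 to 4 and 13.2, 11.5, 17.5 and 18.4 CPM in controls 1 to 4. Again mutant 1 lay within the controls and the other 3 mutants below them, and the log2 fold change was -0.85 (SE 0.53, edgeR adjusted p = 0.478). Without mutant 4 the log2 fold changes were -0.49 for Hoxb3, -0.57 for Hoxd3 and -0.48 for Hoxa3, and without mutant 1 they were -1.36 for Hoxb3 and -1.37 for Hoxa3.

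Paralog group 4, whose genes act in the hindmost rhombomeres and the cervical vertebrae, was tested in all 4 clusters. Hoxc4 had 13.03, 3.52, 9.28 and 0.409 CPM in mutants 1 to 4, against 10.2, 9.52, 18.0 and 13.2 CPM in controls 1 to 4. Hoxa4 had 10.2, 1.93, 6.67 and 0.334 CPM in mutants 1 to 4, against 6.58, 5.85, 14.9 and 13.3 CPM in controls 1 to 4. In both genes mutant 1 was within the control range and mutants 2 and 4 were well below it, while mutant 3 was within it for Hoxa4 and just under it for Hoxc4. Their log2 fold changes were -0.96 (SE 0.64) and -1.09 (SE 0.69), with edgeR adjusted p of 0.506 and 0.486. Hoxd4 had 3.15, 0.687, 3.09 and 0.297 CPM in mutants 1 to 4, against 2.83, 2.73, 3.20 and 4.04 CPM in controls 1 to 4. Here mutants 1 and 3 both lay within the controls, and the log2 fold change was -0.84 (SE 0.55, edgeR adjusted p = 0.499). Hoxb4, also known for expanding blood stem cells, averaged 2.38 ± 2.07 CPM in mutants and 3.37 ± 1.70 CPM in controls (SD, n = 4 each), with the smallest difference of the 13, a log2 fold change of -0.50 (SE 0.61, edgeR adjusted p = 0.718). Leaving out mutant 4 gave -0.56 for Hoxc4, -0.69 for Hoxa4, -0.47 for Hoxd4 and -0.13 for Hoxb4. Leaving out mutant 1 gave -1.55, -1.80, -1.26 and -1.17 for the same genes in that order. The value of Hoxb4 was also smaller without mutant 2, at -0.28, and without control 4, at -0.17.

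Of the paralog groups 2 to 5, group 5 varied most among controls. Hoxb5, a gene of the hindmost hindbrain and of neural crest cells, had 21.0, 1.59, 7.20 and 0.446 CPM in mutants 1 to 4, against 6.23, 5.34, 38.4 and 24.1 CPM in controls 1 to 4. Hoxa5, needed for the airways and the phrenic motor column, had 28.1, 1.93, 7.77 and 0.669 CPM in mutants 1 to 4, against 6.08, 8.27, 30.7 and 27.5 CPM in controls 1 to 4. For both genes controls 1 and 2 were low and controls 3 and 4 high, and mutants 2 and 4 were below all controls. Mutant 3 lay between the pairs for Hoxb5 and within the lower pair for Hoxa5. The log2 fold changes were -1.29 (SE 0.92) for Hoxb5 and -0.92 (SE 0.88) for Hoxa5, with edgeR adjusted p of 0.529 and 0.644. Hoxc5, which acts with Hoxa5 in phrenic motor neurons, had 1.75, 0.515, 0.928 and 0.111 CPM in mutants 1 to 4, against 1.16, 1.09, 4.48 and 2.67 CPM in controls 1 to 4. The 3 counts of Hoxc5 in mutant 4 have an exact 95% Poisson interval of 0.0230 to 0.326 CPM. Hoxc5 had the largest fitted difference of the 13, a log2 fold change of -1.51 (SE 0.64) with an unadjusted p of 0.0374 and an edgeR adjusted p of 0.392. Single libraries moved these values: without mutant 4 they were -0.89 for Hoxb5, -0.52 for Hoxa5 and -1.13 for Hoxc5, and without mutant 1 they were -2.62, -2.42 and -2.21. Without control 3, the highest control, they were -0.65 for Hoxb5, -0.54 for Hoxa5 and -0.99 for Hoxc5, and without mutant 2 that of Hoxa5 was -0.59. None passed the threshold in these fits.

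Compared per kilobase of principal transcript (GENCODE M21 lengths), the control level was highest for Hoxb3 at 11.1 ± 0.333 CPM per kb, followed by Hoxb5 at 9.76 ± 8.34, Hoxa5 at 9.67 ± 6.81 and Hoxd3 at 8.09 ± 1.43 CPM per kb (SD, n = 4). These 4 do not differ in level beyond their spread except for Hoxb3 and Hoxd3, whose mean ± SD ranges are apart. Hoxa2, Hoxc4, Hoxa4, Hoxa3 and Hoxb2 lay between 4.95 and 6.70 CPM per kb. At the low end were Hoxb4 at 1.31 ± 0.661, Hoxd4 at 1.25 ± 0.232 and Hoxc5 at 0.804 ± 0.545 CPM per kb. Members of a paralog group were thus not at like levels, as the mean ± SD ranges of Hoxc4 and Hoxa4 lay above those of Hoxb4 and Hoxd4.

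Members with higher numbers were sparse, and none was tested. The 15 members of paralog groups 1 to 5 held 23180 of the 23754 Hox counts, the 8 members of groups 6 to 8 held 524 and the 16 members of groups 9 to 13 held 50. Of the groups 6 to 8, 3 genes named after their values were seen show where the counts were. Hoxb6, a gene of the trunk, had 82, 1, 5 and 3 counts in mutants 1 to 4, against 1, 5, 94 and 39 counts in controls 1 to 4. Hoxb8, also expressed in microglia precursors, had 72, 3, 1 and 8 counts in mutants 1 to 4, against 1, 2, 60 and 3 counts in controls 1 to 4. Hoxa6 was seen in 3 libraries, with 7 counts in mutant 1, and 14 and 12 counts in controls 3 and 4. Counts of the groups 6 to 8 were thus concentrated in mutant 1 and controls 3 and 4, the same 3 libraries that were highest in Hoxa5 and Hoxb5. Groups 9 to 13 had 4 to 14 counts in each mutant and 4 to 8 in each control.

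By paralog group, mutants departed from controls in different ways. Mutant 4 was at 7.82% of the control mean in group 2, 3.19% in group 3, 4.79% in group 4 and 3.14% in group 5. Mutant 2 was at 76.8%, 50.03%, 24.6% and 10.3% in groups 2 to 5, lower with each step in paralog number. Control 1, of the same title letter, also fell with each step, at 107%, 103%, 72.3% and 34.5%. Control 2, again with that letter, was at 87.4%, 88.4%, 69.4% and 37.7%. Mutant 3 stayed between 40.8% and 75.0%, and mutant 1 between 84.2% and 130%. Thus the low value of mutant 4 spanned groups 2 to 5, while mutant 2 was closest to the control mean in group 2 and furthest from it in group 5. In groups 4 and 5 that mean includes the higher values of controls 3 and 4, and a decline was also seen in controls 1 and 2. No test was made of the gradient within a single library.

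**Figure D2:**
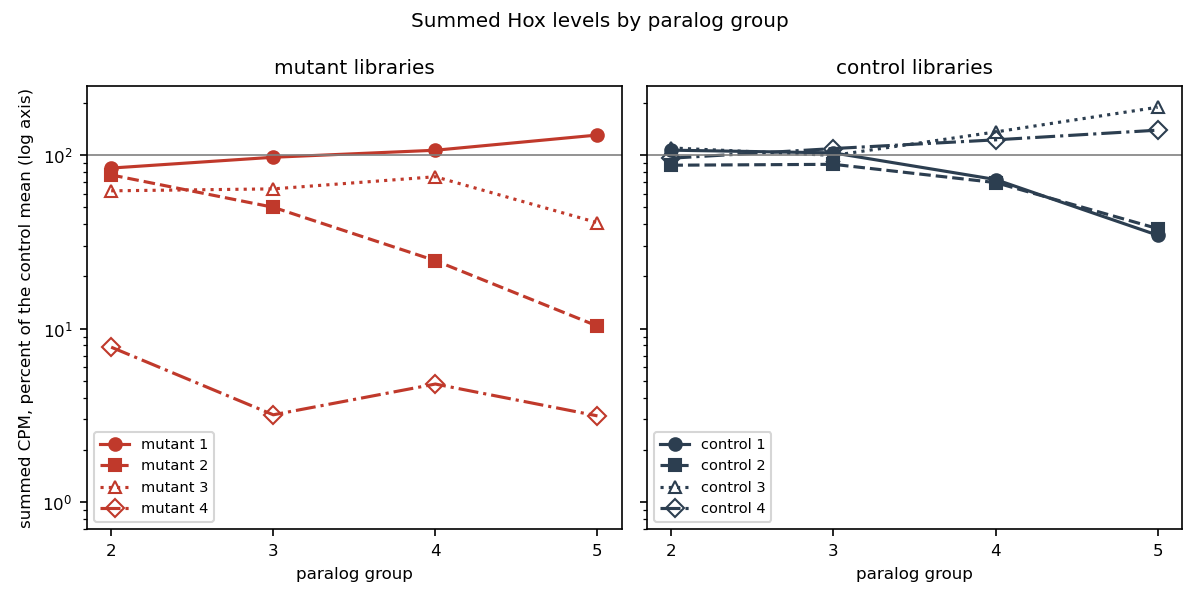
Summed CPM of paralog groups 2 to 5 as a percent of the control mean, on a log axis, for mutant libraries in the left panel and control libraries in the right panel, with a line joining the groups of each library. Mutant 4 lies at 3.14% to 7.82% throughout, the line of mutant 2 descends to 10.3% at paralog group 5, and controls part at groups 4 and 5, where controls 1 and 2 reach 34.5% and 37.7% and controls 3 and 4 reach 189% and 139%.

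Gene by gene, mutant 4 was the lowest library for 13 of 13 tested Hox genes, a count not made over all genes. Its median over the 13 was 4.15% of the control mean. Mutant 4 was under 10% for 10 of 13, a level reached by 0.407% of the 14738 tested genes with a control mean of at least 1 CPM. It was under 50% for 13 of 13, against 6.5% of those genes. Mutant 2 was under 50% for 8 of 13 Hox genes, against 0.631% of genes, and mutant 3 for 3 of 13, against 1.1%. For mutant 1 the count was 0 of 13, against 0.617%, with Hox values from 74.4% to 155% of the control mean. The genes under 50% in mutant 3 were Hoxa5, Hoxb5 and Hoxc5, which were also under 50% in mutant 2. Controls 1 and 2 were low in these genes too, at 34.5% and 37.7% of the control mean summed over paralog group 5. Gene counts of this kind were not made for controls. Under 10% there was 1 of 13 Hox genes in mutant 2, against 0.0136% of genes, and 0 of 13 in mutants 1 and 3, against 0.00679% and 0.0407%. These are values of single pups and carry no test between genotypes.

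In each of the 4 clusters mutant 1 was the highest mutant and mutant 4 the lowest, while controls were ordered otherwise in cluster D than in the rest. Cluster A summed to 66.2, 22.8, 30.9 and 3.49 CPM in mutants 1 to 4, against 39.98, 37.1, 78.1 and 71.8 CPM in controls 1 to 4. Cluster B summed to 74.9, 27.3, 37.9 and 2.82 CPM in mutants 1 to 4, against 52.4, 51.1, 93.5 and 75.4 CPM in controls 1 to 4. In cluster D, where no tested gene has a number above 4, the sums were 25.1, 12.2, 20.5 and 0.892 CPM in mutants 1 to 4, against 30.8, 22.0, 26.6 and 32.2 CPM in controls 1 to 4, and all mutants but the first were below all controls. Control 1 was among the lower controls in clusters A, B and C and among the higher ones in cluster D. Cluster C was the lowest of the clusters in every library, at 0.594 to 14.95 CPM in mutants and 10.8 to 23.0 CPM in controls.

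Among controls the spread was larger in paralog groups 4 and 5 than in groups 2 and 3. The ratio of the highest to the lowest control was 1.26 in paralog group 2, 1.23 in group 3, 1.96 in group 4 and 5.46 in group 5. Hoxb3 had a coefficient of variation of 3.01% among controls, lower than that of all but 4.22% of the 14738 genes, and Hoxb5 had 85.4%, higher than that of 99.9% of them. Of the 13 tested Hox genes, 23.1% differed at least 4-fold among controls, as did 0.373% of all those genes. Controls 1 and 2, with title letter P, were low and controls 3 and 4, with letter R, high in paralog groups 4 to 6. Mutants did not follow that order: mutant 1, with letter P, was the highest mutant in these groups and mutant 2, with the same letter, was lower than mutant 3. The labels do not explain the letter, and its part in the spread was not tested apart from the interaction below.

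The make-up of the Hox counts gives the same contrast without any scaling between libraries. The ratio of group 5 to group 3 counts was 0.703, 0.108, 0.334 and 0.516 in mutants 1 to 4, against 0.175, 0.223, 0.991 and 0.668 in controls 1 to 4. The mutants ran from 0.108 to 0.703 and the controls from 0.175 to 0.991, so the groups overlapped. Mutant 4, although lowest in level, had a ratio between those of mutants 3 and 1, from 33 and 64 counts. The ratio of group 2 to group 3 was steadier in controls, at 0.235 to 0.295, and was 0.232, 0.411, 0.261 and 0.656 in mutants 1 to 4, so that mutants 2 and 4 lay above all controls.

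**Figure D3:**
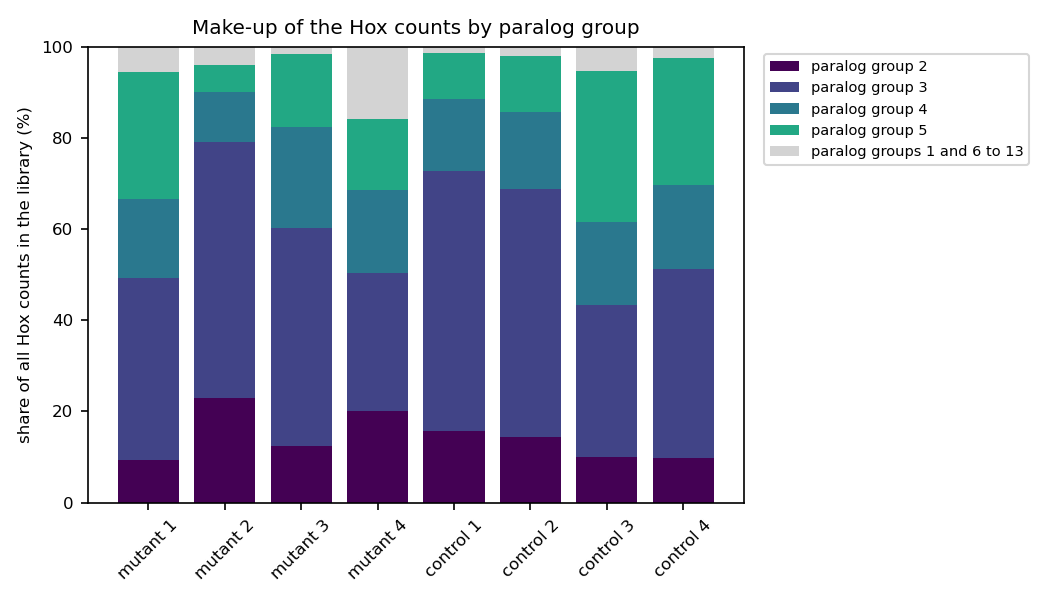
Share of all Hox counts of a library that fell in paralog groups 2 to 5 and in the remaining groups together, stacked to 100%, for mutants 1 to 4 on the left and controls 1 to 4 on the right. Paralog group 5 takes 6.07% to 28.1% in mutants and 10% to 33.3% in controls, and is large in mutant 1 and controls 3 and 4.

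Within the title letters the comparison gave different values. In the P libraries the log2 fold changes of mutants 1 and 2 over controls 1 and 2 ran from -0.54 to 1.07, with 9 of 13 negative. The positive ones were Hoxa5 at 1.07, Hoxb5 at 0.96, Hoxb4 at 0.59 and Hoxc5 at 0.0030. In the R libraries, mutants 3 and 4 over controls 3 and 4, all 13 were negative, from -3.09 for Hoxb5 to -1.15 for Hoxd4. No Hox gene passed the threshold within either letter. The test of the difference itself, an interaction of genotype and letter in edgeR's quasi-likelihood fit, passed for 0 of 13 Hox genes and for 505 genes in all (3.2% of 15789). That number rested on single libraries, with 39, 1, 2155 and 400 genes when mutants 1 to 4 were left out in turn, 15, 17, 2 and 3 when controls 1 to 4 were, and 1136 with DESeq2. All 13 interaction values were negative, as were 48.1% of those of all genes. The lowest adjusted p among Hox genes was 0.160, for Hoxc5, and 1 had a negative value at an unadjusted p under 0.05, as did 10.2% of all genes. With mutant 3 left out, so that mutant 4 was the lone R mutant and its spread was assumed from the others, the interaction passed for 7 Hox genes (Hoxa2, Hoxa3, Hoxb2, Hoxb3, Hoxc5, Hoxd1 and Hoxd3), all negative, of 15 tested, among 2155 genes in either direction (13.5% of 15909).

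**Figure D4:**
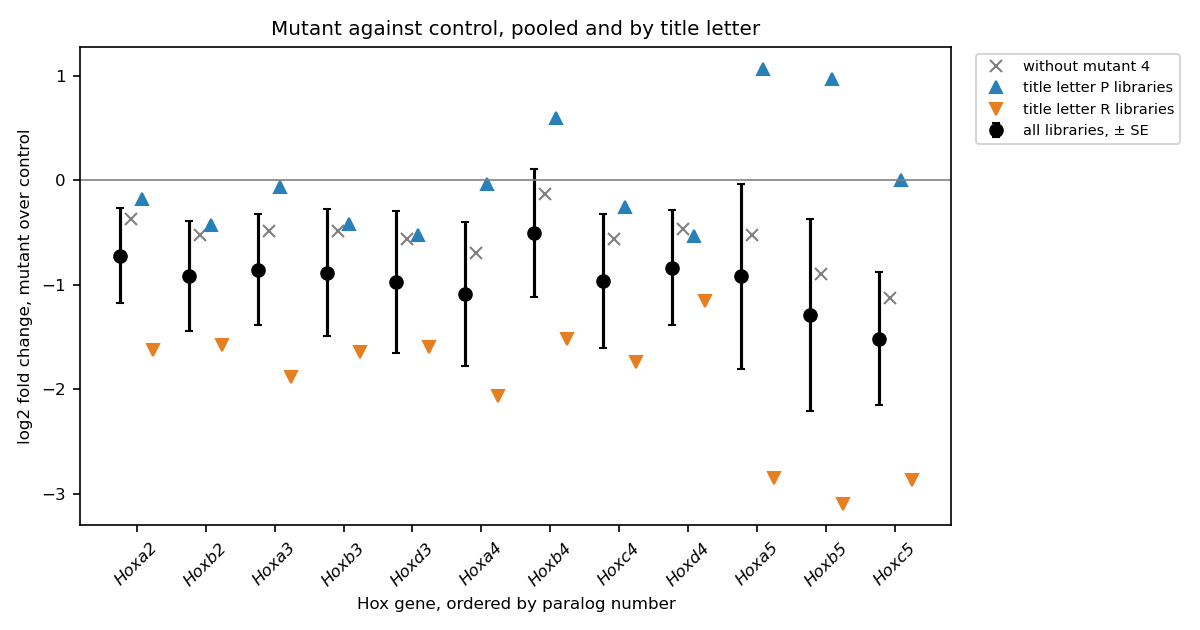
Log2 fold change of mutant over control for 12 tested Hox genes, from all libraries with SE bars, without mutant 4, and within the libraries of title letter P and of letter R. The pooled values lie between -1.51 and -0.50, and the letters are furthest apart for Hoxa5, Hoxb5 and Hoxc5.

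Along the genes, the difference was spread over the exon bins. The bin tables split the 13 tested genes into 37 bins, of which 27 had at least 40 counts over the controls. All 27 averaged lower in mutants, at 27.1% to 76.3% of the control mean, and mutant 4 alone was at 0% to 31.9%. The cut used control counts only, and the bins belong to genes already lower in mutants, so the 27 are no separate evidence. Under the cut, bin 3 of Hoxb3 had 31 counts over the mutants and 27 over the controls. Such a count was not made over all bins. No Hox bin name joins several genes. In Hoxb3 the last of 5 bins held 76.2% of the gene's bin counts in mutants and 75.9% in controls. In Hoxa5 the share of bin 1 was 71.3%, 72.0%, 59.0% and 60.0% in mutants 1 to 4, from 50 and 20 counts in mutants 2 and 4, against 62.1%, 59.6%, 57.2% and 55.7% in controls 1 to 4, and it was not tested.

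Other genes of the Hox pathway passed the threshold in no list, as no gene did among all 15789 tested (0.0%). The TALE cofactors are the Pbx, Meis and Pknox proteins that bind DNA with Hox proteins. Of their 9 genes 3 were higher and 6 lower with 0 past the threshold, while 47.7% of all genes tested were lower. The 2 with the smallest p were Pknox1, at 46.1 ± 4.74 CPM in mutants and 39.8 ± 2.36 CPM in controls (log2 fold change 0.21, edgeR adjusted p = 0.397), and Meis1, at 165 ± 21.4 CPM in mutants and 143 ± 5.17 CPM in controls (log2 fold change 0.21, edgeR adjusted p = 0.415). Meis2, named after its values were seen, was the member that differed most by library, with 169, 141, 85.9 and 23.5 CPM in mutants 1 to 4, against 155 to 181 CPM in controls. Summed TALE levels were 634 to 787 CPM in mutants and 721 to 776 CPM in controls, and mutant 4 was at 85.9% of the control mean.

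Upstream regulators, among them Egr2, the Cdx genes and the enzymes and receptors of retinoic acid, had 13 tested members, of which 5 were higher and 8 lower with 0 past the threshold. Crabp2, a carrier of retinoic acid, averaged 8.37 ± 1.72 CPM in mutants and 13.9 ± 4.85 CPM in controls, with a log2 fold change of -0.74 (SE 0.26, edgeR adjusted p = 0.381). Aldh1a2, which makes retinoic acid, averaged 23.1 ± 2.46 CPM in mutants and 34.2 ± 14.5 CPM in controls, with a log2 fold change of -0.57 (SE 0.26, edgeR adjusted p = 0.396). For comparison with the directions in these lists, 47.7% of all genes tested were lower in mutants. Polycomb and trithorax genes, which hold Hox clusters silent or active, had 16 higher and 2 lower of 18 tested, again with 0 past the threshold. Their smallest p-values were those of Ezh2, the histone H3 lysine 27 methyltransferase, with a log2 fold change of 0.43, and of Cbx2, a Polycomb reader, with 0.41 (edgeR adjusted p = 0.381 for both).

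Genes that flank the clusters did not share the pattern as a group, with 8 higher and 9 lower of 17 tested and 0 past the threshold. Among all genes tested 47.7% were lower. Sums of the flanking genes were 1203 to 1451 CPM in mutants and 1197 to 1401 CPM in controls. Evx1, a homeobox gene at the 5′ end of cluster A named after its values were seen, had 1.36, 1.85, 0.618 and 0.0743 CPM in mutants 1 to 4, against 1.40 to 2.79 CPM in controls (log2 fold change -1.21, edgeR adjusted p = 0.396). Cbx1, a heterochromatin protein, and Atp5g1, a part of ATP synthase, had the smallest p of the list, with log2 fold changes of 0.31 and -0.33. Non-coding transcripts of the clusters were hardly counted: of 9 listed, 5 had a single count over the 8 libraries and 4 had none, in polyA libraries that are not made for microRNAs.

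Markers of brainstem cells moved with the Hox genes in part. Cranial motor neuron markers summed to 137, 119, 74.1 and 33.4 CPM in mutants 1 to 4, against 222, 198, 220 and 177 CPM in controls 1 to 4, over 10 genes none of which was at 0 throughout. All 9 tested were lower, as were 47.7% of all genes, with 0 past the threshold. At an unadjusted p under 0.05 in edgeR's test there were 5, against 5.7% of all genes lower at that level. Lowest in mutant 4 were 9 of the 10, a count not made over all genes. Prph, encoding peripherin, had 21.7, 17.7, 8.92 and 1.41 CPM in mutants 1 to 4, against 45.4 to 61.4 CPM in controls. The control sums of this list spanned 1.25-fold, where paralog group 5 spanned 5.46-fold. Mutant 1, at 108% of the control mean in summed Hox level, was at 67.0% in motor neuron markers. The median over the 9 tested genes was 75.8%, 61.4%, 30.7% and 3.60% of the control mean in mutants 1 to 4, with all 9 under 50% in mutant 4, as were all 13 tested Hox genes. Of the 14738 tested genes with a control mean of at least 1 CPM, 6.5% were under 50% in mutant 4. Monoamine neuron markers, 10 genes, were at 104%, 172%, 49.9% and 23.1% of the control mean in mutants 1 to 4. The high sum of mutant 2 came largely from 3 genes named after their values were seen. Slc6a2, the noradrenaline transporter, was at 34.6 CPM in mutant 2, against 2.02 to 9.95 CPM in controls. Dbh, which makes noradrenaline, was at 19.0 CPM in mutant 2, against 1.90 to 5.97 CPM in controls, and Slc18a2, the vesicular monoamine transporter, at 24.9 CPM, against at most 23.0 CPM. Without these 3 genes mutant 2 was at 111% and mutant 4 at 18.1% of the control mean. Gene by gene, the median over the list was 95.7%, 111%, 49.6% and 18.4% in mutants 1 to 4. All 10 genes were under 50% in mutant 4, against the 6.5% given above.

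Hindbrain and spinal interneuron markers, 9 genes, summed to 82.4%, 96.5%, 97.5% and 77.5% of the control mean in mutants 1 to 4, but Tlx3 carried the sum in mutants 3 and 4. Tlx3, a selector of excitatory relay neurons, had a log2 fold change of 1.15, and Slc6a5, a glycine transporter, had -0.92. Without Tlx3, left out after its values were seen, the sums were at 82.8%, 76.3%, 64.8% and 17.7%. The median over the 8 tested genes was 81.4%, 120%, 59.9% and 11.4% of the control mean, and 6 of the 8 were under 50% in mutant 4. The share was 6.5% among the 14738 tested genes with a control mean of at least 1 CPM, a level that Lhx4 of this list did not reach. Granule cell precursor markers were at 94.2%, 121%, 135% and 184%, and choroid plexus markers at 134%, 235%, 187% and 183%. Summed levels of the other lists, as percent of the control mean in mutants 1 to 4, were 121%, 104%, 110% and 158% for Purkinje cells and 122%, 152%, 143% and 167% for midbrain. Of the 67.8 CPM of the midbrain list in mutant 4, Otx2 made up 46.4 CPM and En1 19.9 CPM. Foxa1 was at 0.0743 CPM there, against 0.502 to 1.51 CPM in controls. Pax7, at 0.743 CPM, and Slc6a3, at 0.669 CPM, were within the control range in mutant 4. These genes were named after their values were seen. Without Otx2 and En1 the midbrain sums were at 114%, 196%, 59.7% and 51.4% of the control mean in mutants 1 to 4. That control mean was only 2.96 CPM. Gene by gene, the median over the 5 tested midbrain genes was 120%, 135%, 95.3% and 91.1% of the control mean in mutants 1 to 4. Of these 5 genes, 1 was under 50% in mutant 4. Sums were at 79.3%, 69.9%, 79.1% and 46.4% for the oligodendrocyte lineage, and 65.5%, 74.9%, 26.7% and 23.6% for Schwann cells. Meningeal and cartilage markers were at 82.2% to 123%, and skeletal muscle markers, summing to 7.64 CPM or less in mutants, were at 41.8% to 58.0%. No member of any of these lists passed the threshold, as no gene did among all those tested. The part of these cell types in the Hox values was not tested.

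**Figure D5:**
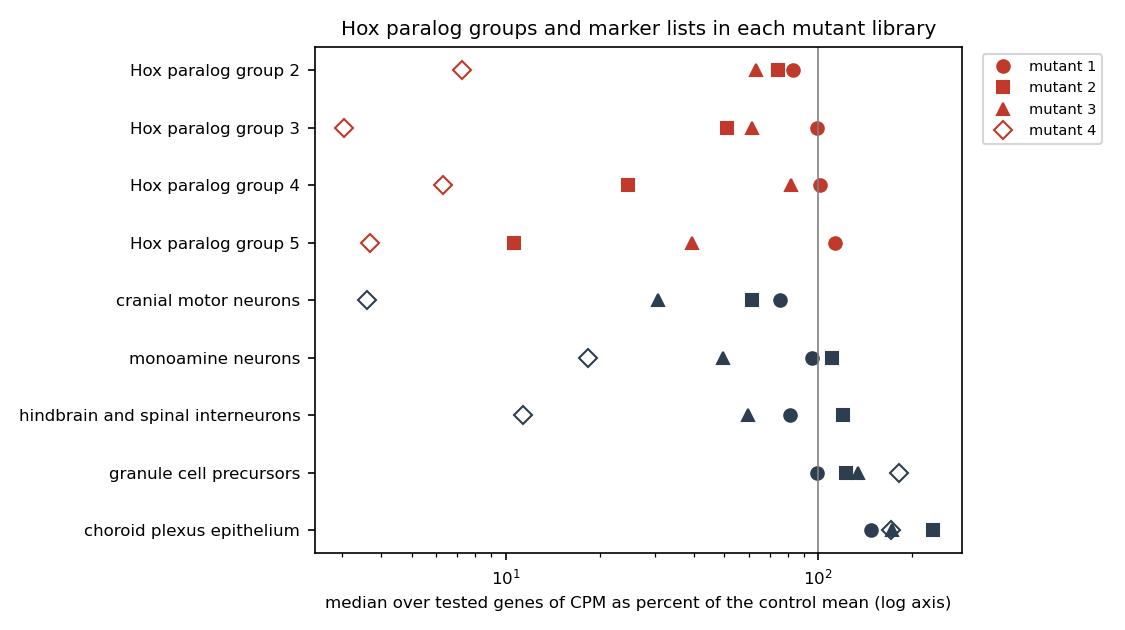
Median over the tested genes of each list of the level in a mutant library as a percent of the control mean, on a log axis, for Hox paralog groups 2 to 5 in red and for 5 marker lists in dark blue. Mutant 4, the open diamond, is at 3.05% to 7.23% in the Hox groups, 3.60% in cranial motor neuron markers, 18.4% in monoamine neuron markers, 11.4% in interneuron markers and 182% in granule cell precursor markers.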

How the data were processed

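Whole cerebella of 8 pups were profiled by polyA TruSeq RNA sequencing, per the labels. The deposited values are whole-number counts per gene and per exon bin, not normalized by the authors. TopHat, HTSeq, DESeq2 and mm9 are named without versions in the submitters' processing notes, and the annotation and any use of strand are not given in the sources used here. Reads from overlapping or antisense transcripts in the dense clusters, and from near-identical homeobox parts, may therefore be split or lost. The 5 summary lines of each gene table held 24.8% to 34.3% of its entries and were left out.

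Genes were tested with edgeR 4.0.16 (R 4.3.3; filterByExpr, TMM, robust quasi-likelihood F test, two-sided, genotype as the only term), with Benjamini-Hochberg adjustment over all 15789 genes and a threshold of 0.05. SEs were derived from fold changes and F statistics, and DESeq2 1.42.0 served as an alternative. The interaction added title letter to the fit. Libraries of a group are separate pups, and all pairs within a group differed beyond counting noise (chi-square per degree of freedom 7.42 to 81.0). On simulated counts over 15679 genes, the test of mutant against control called 54% of genes changed 1.5-fold, 74% at 2-fold, 97.8% at 4-fold and 100% at 8-fold, with 5.92% of calls false. The simulation drew genes independently, with no library set apart. Its changed genes were picked at random from all genes, so the rates are not those of the Hox genes, whose SEs reached 0.92.

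Every Hox gene passing the filter was named except 1, which is not reported here by itself, and from other lists the 2 with the smallest p, of which not all are printed. The members and lists were chosen with earlier results of these data known. Lists are described by counts, sums and medians, with no test of a list. Promoter windows are RefSeq's on GRCm38.p6, and transcript lengths are GENCODE M21's, found for 37 of 39 members.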

Additional observations from a re-analysis of the deposited data

How the results depend on the processing

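Counts of Hox genes past the threshold were 0 under all 15 alternatives, and all 13 log2 fold changes stayed negative except in the title letter P libraries and without the libraries holding Y-linked counts. In the P libraries Hoxa5 was at 1.07, Hoxb4 at 0.59, Hoxb5 at 0.96 and Hoxc5 at 0.0030. With the Y-linked libraries left out, an alternative chosen after seeing the data, Hoxb4 was at 0.26 and the median of the 13 was -0.32. That median was -0.92 in the reported fit, -0.069 in the P libraries and -1.64 in the R libraries. Leaving out a library in turn gave -1.37 (without mutant 1) to -0.52 (without mutant 4). The number of all genes past the threshold was 0, against 52 with DESeq2 (40 higher, 12 lower), 5 in the P libraries, 1 in the R libraries and 0 to 1 with a library left out, the 1 being without mutant 1. Hox genes with an interaction ranged from 0 to 7 with a library left out, the 7 being without mutant 3. The log2 ratio of summed Hox means was -0.92, against -0.05 in P, -1.96 in R, -0.26 without the Y-linked libraries and -1.54 to -0.54 with a library left out. Fits with libraries left out have fewer samples, and the cause of these changes was not tested. No paired analysis was possible because the replicate numbers were given in accession order and pair no samples; with title letter as a block the median was -0.97 and 0 Hox genes passed. Low counts limit paralog groups 6 to 13.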
